A study of Mus musculus with 4 samples.

Results

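The matrix proteases and their inhibitors of the mouse tracheoesophageal anlage at E9.75 are described here, dorsal part against ventral part. The members are the genes with a symbol of the ADAM, ADAMTS, ADAMTS-like, MMP or TIMP families. The array annotation gives that symbol as the only one of a probe set. The rule used names and not values, though earlier results of these data were known when it was chosen. There were 70 such genes with 124 probe sets, among 18194 genes with 34958 probe sets that carry a single symbol. By family they were 28 ADAM genes, 20 ADAMTS and ADAMTS-like genes, 18 MMP genes and 4 TIMP genes. All embryos were of the BALB/c strain, and the labels name no mutation or treatment in either group. The anlage is the foregut tube before the esophagus separates from the respiratory organs, with the lung bud as a swelling on its ventral side, and its dorsal and ventral parts were separated by hand dissection. Each part was measured on 2 Affymetrix arrays that the labels call biological replicates, from 100 ng of total RNA per array. Values are RMA values, which are background-corrected and quantile-normalized probe set summaries and are read here as log2.

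These families cut or protect the extracellular matrix and the surfaces of cells. ADAMs are membrane-anchored proteases that shed the outer parts of receptors, ligands and adhesion molecules. ADAMTS proteases are secreted and cleave large proteoglycans such as versican, the ends of procollagens and other matrix proteins, whereas the ADAMTS-like proteins share their ancillary domains but lack a protease domain. MMPs degrade collagens and other matrix and surface proteins, and TIMPs inhibit MMPs and, in the case of TIMP3, several ADAMs and ADAMTS proteases as well. In the embryonic foregut, remodelling of basement membrane and mesenchymal matrix accompanies the outgrowth and branching of the lung bud.

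Each sample held epithelium, mesenchyme and whatever adjoining tissue was cut with it, so fewer cells of a type and less RNA per cell cannot be told apart. The array medians lay between 5.42 and 5.47. Over the tested genes the median absolute difference between replicates was 0.08 dorsally and 0.26 ventrally, and for the tested members these values were 0.10 and 0.26. The 12 poly-A control probe sets, which read RNAs spiked in ahead of the labelling, lay higher on replicate 2 than on replicate 1, by 2.32 dorsally and 1.90 ventrally, so the difference between the dorsal and the ventral array of the same number is also given for the genes that passed the test. All 13 foregut epithelial and 12 foregut mesenchymal markers on the array were tested. *Krt8*, of epithelium, was at 11.77 and 11.68 dorsally and 12.33 and 11.98 ventrally, and *Foxf1*, of foregut mesenchyme, at 9.59 and 9.37 dorsally and 9.58 and 9.10 ventrally. *Foxf2* was at 6.45 and 6.31 dorsally and 6.76 and 6.04 ventrally and *Wnt2b* at 4.71 and 4.75 dorsally and 4.87 and 5.03 ventrally. *Nkx2-1*, of respiratory epithelium, was at 5.10 and 5.03 dorsally and 5.09 and 5.25 ventrally, below the median of all 4 arrays.

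Most of the matrix proteases did not pass the test between the parts, and 6 of the 8 that did were ADAMTS genes. Of the 70 members, 42 exceeded the 40th percentile of the values of an array in 2 or more arrays and were tested with limma among 13139 genes. *Adamts20*, *Adamts15*, *Adamts4*, *Adamts9*, *Mmp16* and *Timp3* were higher dorsally, that is 6 members, where 4.79% of all tested genes were higher dorsally. *Adamts18* and *Adamts6* were higher ventrally, that is 2 members, where 4.09% of all tested genes were, and 8.88% of all tested genes passed in either direction. The other 34 did not pass at an adjusted p of 0.05. An unadjusted p under 0.05 was found for 12 of the 42, and for 2490 of all 13139 tested genes. Both dorsal arrays lay above both ventral arrays for 18 members (33.3% of all tested genes did so) and both ventral arrays above both dorsal arrays for 7 (17.6% of all). The median difference of the 42 members, dorsal minus ventral, was -0.05 on the log2 scale beside 0.07 for all tested genes, and the median absolute difference was 0.25 beside 0.18. The members had a median value of 6.65 over the arrays where all tested genes had 8.18. With 2 arrays per part the smallest two-sided p of an exact permutation test is 0.333, so the p-values given are those of limma, which borrows the spread over genes, and they measure only the spread between these arrays. Without dorsal replicate 1 or dorsal replicate 2, *Adamts20* was the member higher dorsally and *Adamts18* the member higher ventrally that passed. Without ventral replicate 1 the counts were 13 dorsally and 8 ventrally, with 35.1% and 12.3% of all genes called, and without ventral replicate 2 they were 5 and 4, with 4.78% and 6.21% of all genes called. Without dorsal replicate 1 the shares of all genes were 1.90% and 2.15%, and without dorsal replicate 2 they were 1.94% and 2.13%.

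**Figure D1:**
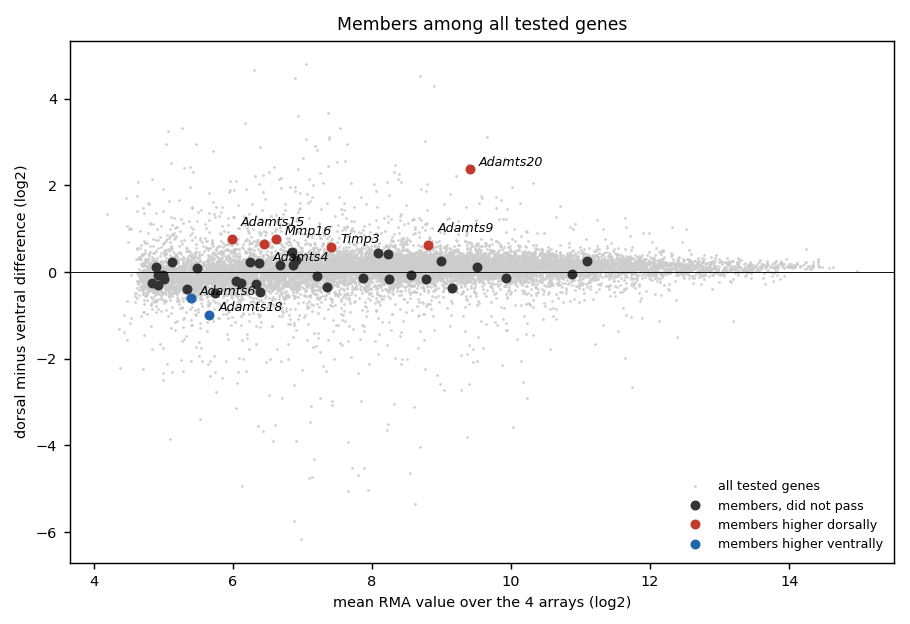
Difference between the parts, dorsal minus ventral (log2, vertical axis), against the mean RMA value over the 4 arrays (log2, horizontal axis), with 1 point per tested gene. Grey points are the 13139 tested genes, dark points the 34 members that did not pass the test, and coloured points the 6 members higher dorsally and the 2 higher ventrally. *Adamts20*, at 2.37, stands above the other members.

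Among the ADAMTS proteases that cleave versican and related proteoglycans, 4 of 7 were higher dorsally and none ventrally. Of all tested genes 4.79% were higher dorsally and 4.09% ventrally. The median difference of the 7 was 0.63. This group was set with earlier results of these data known. *Adamts20*, the gene mutated in the belted mouse, which lacks pigment cells in a belt of trunk skin, reached 10.54 and 10.64 dorsally but 8.21 and 8.24 ventrally. The replicates of each part lay close together and the parts did not overlap. The difference was 2.37 with a standard error (SE) of 0.17 (limma, n = 2 per part, adjusted p = 6.72e-10), a 5.18-fold higher level dorsally, and it was 2.34 between the arrays of number 1 and 2.41 between those of number 2. *Adamts9*, its closest relative, which acts together with *Adamts20* in closing the palate of the mouse, had 9.14 and 9.11 dorsally and 8.63 and 8.37 ventrally. Both dorsal values lay above both ventral ones, by a mean of 0.63 (limma, SE 0.17, adjusted p = 0.0212), with 0.51 and 0.74 within the numbers 1 and 2. *Adamts15* had 6.40 and 6.34 dorsally and 5.64 and 5.56 ventrally, a difference of 0.77 (limma, SE 0.17, adjusted p = 0.00312) that was 0.77 and 0.78 within the numbers. *Adamts4*, a protease of aggrecan and versican, had 6.86 and 6.68 dorsally and 6.06 and 6.20 ventrally. Its parts did not overlap either, and the difference was 0.64 (limma, SE 0.17, adjusted p = 0.0176), with 0.80 and 0.48 within the numbers. *Adamts4* did not pass with the values quantile-normalized once more (0.56, adjusted p = 0.0611) or with the mean of its probe sets (0.33), since its other probe set, below the filter, lay at 3.63 and 3.87 dorsally and 3.58 and 3.87 ventrally. Without dorsal replicate 1 the differences of *Adamts15* (0.74), *Adamts4* (0.55) and *Adamts9* (0.61) did not pass, and without dorsal replicate 2 those of *Adamts15* (0.80), *Adamts4* (0.73) and *Adamts9* (0.64) did not. *Adamts20* passed under each of its 13 alternatives, at 2.26 to 2.42.

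The other members of this group did not pass. *Adamts1*, which cleaves versican in the heart and the ovary, had 9.81 and 9.90 dorsally and 10.17 and 9.81 ventrally. Its parts overlapped, with a difference of -0.14 and a 95% interval of -0.50 to 0.23. *Adamts5*, active in heart valves and joints, differed by -0.15, and *Adamts8* by 0.12.

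The promoters of the genes that passed and have an entry in the RefSeq promoter table are shown, so that a reader can set the sequence beside the values. The table (build GRCm38.p6) held 41 of the 70 members and 4 of the 8 that passed. The 250 bases before the start of each gene are printed, with capitals for the GC box (GGGCGG), the TATA box (TATAAA), the CCAAT box (CCAAT) and the AP-1 site (TGACTCA), searched on both strands. *Adamts20* and *Adamts9* are given here as members higher dorsally.
*Adamts20* (chr15:94404351-94404600, minus strand): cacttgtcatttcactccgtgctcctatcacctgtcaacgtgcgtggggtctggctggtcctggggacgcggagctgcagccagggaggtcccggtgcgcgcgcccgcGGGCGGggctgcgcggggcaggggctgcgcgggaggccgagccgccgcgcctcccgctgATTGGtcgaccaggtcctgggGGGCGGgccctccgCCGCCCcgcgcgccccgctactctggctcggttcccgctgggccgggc
*Adamts9* (chr6:92943535-92943784, minus strand): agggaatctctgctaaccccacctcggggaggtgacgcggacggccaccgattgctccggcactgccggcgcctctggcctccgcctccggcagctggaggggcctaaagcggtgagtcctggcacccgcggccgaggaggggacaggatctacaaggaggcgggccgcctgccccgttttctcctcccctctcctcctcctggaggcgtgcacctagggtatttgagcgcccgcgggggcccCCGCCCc
*Adamts20* held 4 matches, of which 3 were GC boxes and 1 a CCAAT box, and *Adamts9* held 1 GC box. Among all 27025 promoters of this length, 32.7% held a GC box, 34.2% a CCAAT box, 12.9% a TATA box and 4.47% an AP-1 site, and a match is a description of the letters and not of binding.

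Outside the proteoglycan-cleaving group 2 of 7 tested ADAMTS genes were higher ventrally and none dorsally, beside 4.09% and 4.79% of all tested genes. This remainder was formed after the values were seen. *Adamts18*, whose loss affects the eye and branching organs in mice, lay at 5.21 and 5.14 dorsally and at 6.34 and 5.97 ventrally. The parts were separated, with a difference of -0.98 (limma, SE 0.18, adjusted p = 0.000454), a 1.98-fold higher level ventrally, and -1.13 and -0.83 within the numbers 1 and 2. *Adamts18* passed under each of the 11 alternatives in which it was tested, at -1.17 to -0.80. *Adamts6*, which is needed for normal heart development in the mouse, had 5.08 and 5.11 dorsally and 5.92 and 5.47 ventrally. These did not overlap, and the difference was -0.60 (limma, SE 0.18, adjusted p = 0.0376), with -0.85 and -0.36 within the numbers. *Adamts6* was lost when either dorsal replicate 1 (-0.59) or dorsal replicate 2 (-0.62) was left out, with the values quantile-normalized once more (-0.58), without a filter (-0.60) or with a trend in eBayes (-0.60). Its difference was -0.38 without ventral replicate 1, and over its 11 alternatives the adjusted p lay between 0.00871 and 0.600. The dorsal values of both genes lay below the medians of their arrays, though above the 40th percentile. The further probe sets of both genes lay below the filter. They differed by -0.17 and -0.02 for *Adamts18* and by -0.06 for *Adamts6*. The promoter of *Adamts18*, the member higher ventrally that has an entry, is given for comparison with the dorsal ones above.
*Adamts18* (chr8:113848840-113849089, minus strand): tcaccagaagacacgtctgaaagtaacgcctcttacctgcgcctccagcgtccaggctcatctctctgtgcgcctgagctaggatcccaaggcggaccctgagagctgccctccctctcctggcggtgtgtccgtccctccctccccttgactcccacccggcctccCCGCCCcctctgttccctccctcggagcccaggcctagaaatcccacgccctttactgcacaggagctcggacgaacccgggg
It held 1 GC box and none of the other letters searched.

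The 5 other tested ADAMTS genes did not pass. *Adamts7*, which cleaves the cartilage protein COMP, had 7.08 and 7.08 dorsally and 6.95 and 6.30 ventrally. Its difference of 0.45 rested mainly on ventral replicate 2 and had an adjusted p of 0.198 from limma, with an unadjusted p of 0.0305. *Adamts10*, which acts on fibrillin, differed by 0.27, and *Adamts3*, which trims procollagens and activates VEGF-C, by 0.17. *Adamts12* and *Adamts16* differed by -0.15 and -0.21, with overlap between the arrays of the parts. Of 5 ADAMTS-like genes only *Adamtsl1* and *Adamtsl2* were tested. *Adamtsl2*, which binds fibrillin and is needed in the mouse bronchi, had 6.10 and 6.23 dorsally and 6.42 and 6.85 ventrally. Both ventral values were the higher ones, but the difference of -0.47 did not pass (95% interval -0.85 to -0.09, adjusted p = 0.135 from limma). *Adamtsl1* likewise had both ventral arrays above both dorsal ones, at a difference of -0.30 (adjusted p = 0.363 from limma).

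**Figure D2:**
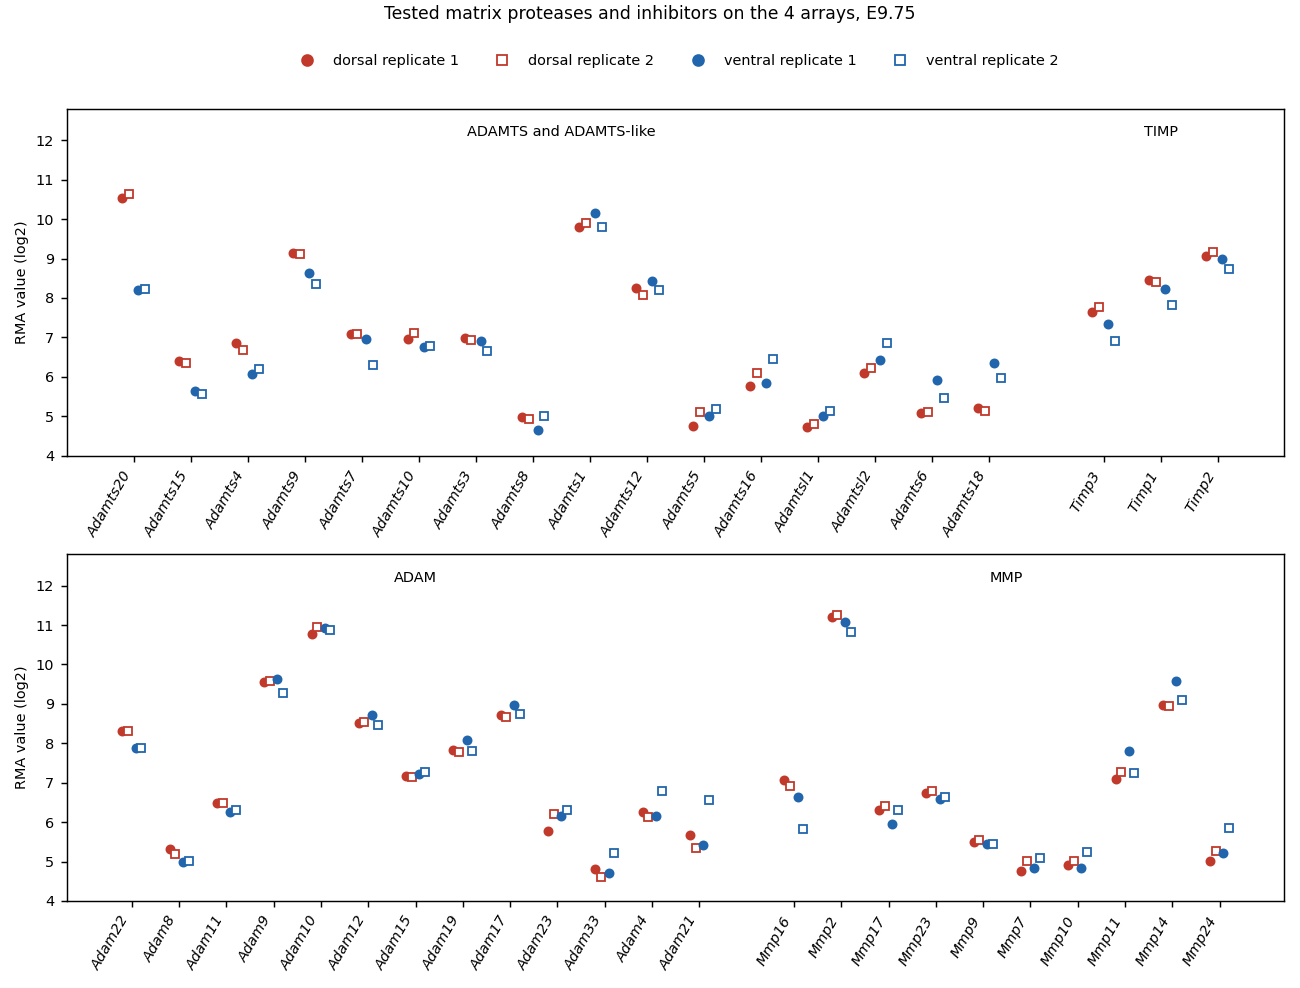
Level (RMA, log2, vertical axis) of each of the 42 tested members on the 4 arrays, grouped by family and ordered within a family by the difference between the parts. Red marks are dorsal and blue marks ventral arrays, with filled circles for replicate 1 and open squares for replicate 2. *Adamts20* shows the widest gap of the members tested, and for most ADAM genes the marks of the parts lie together.

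Of 10 tested MMP genes *Mmp16* was higher dorsally, none was higher ventrally and 9 did not pass. The shares of all tested genes were 4.79% dorsally and 4.09% ventrally. *Mmp16*, a membrane-anchored MMP that can activate the secreted gelatinase MMP2, had 7.08 and 6.92 dorsally and 6.65 and 5.82 ventrally. The parts did not overlap, although the ventral arrays lay 0.83 apart. The difference was 0.77 (limma, SE 0.21, adjusted p = 0.0228), a 1.70-fold higher level dorsally, with 0.43 and 1.10 within the numbers 1 and 2. Its 2 other probe sets above the filter differed by 0.62 and 0.79, and the probe set below it by 0.17. *Mmp16* was lost when ventral replicate 2 (0.35), dorsal replicate 1 (0.69) or dorsal replicate 2 (0.85) was left out, with the values quantile-normalized once more (0.72), without a filter (0.77) or with the mean of its probe sets (0.59). Its difference was 1.18 without ventral replicate 1, and over its 13 alternatives the adjusted p lay between 0.000314 and 0.346.

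The gelatinase gene *Mmp2*, which is expressed in embryonic mesenchyme, had 11.19 and 11.25 dorsally and 11.09 and 10.84 ventrally. Its other probe set had 10.38 and 10.35 dorsally and 10.26 and 9.96 ventrally. Both ran the same way, with both dorsal arrays the higher ones, but the difference of 0.26 did not pass (95% interval -0.10 to 0.62, adjusted p = 0.455 from limma). It passed without ventral replicate 1 (0.39), when the median of all genes lay at 0.18, and was 0.13 without ventral replicate 2, which did not pass. *Mmp14*, the membrane protease that activates MMP2 with the help of TIMP2, had 8.98 and 8.95 dorsally and 9.58 and 9.11 ventrally. It ran in the opposite direction, at -0.38 (95% interval -0.76 to 0.00, adjusted p = 0.265 from limma), and passed without ventral replicate 2 (-0.62) but was -0.14 without ventral replicate 1, which did not pass. *Mmp11*, a stromelysin of stromal cells, was at 7.09 and 7.27 dorsally and 7.80 and 7.25 ventrally, with overlap, and differed by -0.34. It too passed without ventral replicate 2, at -0.62, but was -0.07 without ventral replicate 1. *Mmp9*, the other gelatinase, lay close to the medians of the arrays at 5.50 and 5.55 dorsally and 5.44 and 5.45 ventrally, a difference of 0.08 (95% interval -0.27 to 0.43). *Mmp17*, *Mmp23*, *Mmp7*, *Mmp10* and *Mmp24* differed by -0.39 to 0.24.

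All 3 tested TIMP genes had both dorsal arrays above both ventral ones, as did 33.3% of all tested genes, and *Timp3* passed the test. *Timp3*, the inhibitor that binds to the matrix, had 7.65 and 7.77 dorsally and 7.34 and 6.91 ventrally. The difference was 0.58 (limma, SE 0.18, adjusted p = 0.0475), with 0.31 and 0.86 within the numbers 1 and 2. Its 2 other probe sets above the filter differed by 0.55 and 0.50, whereas the probe set below it differed by -0.21. *Timp3* was lost when dorsal replicate 1 (0.64), dorsal replicate 2 (0.52) or ventral replicate 2 (0.36) was left out, with the values quantile-normalized once more (0.48), without a filter (0.58) or with the mean of its probe sets (0.35), and over its 13 alternatives the adjusted p lay between 0.0112 and 0.760. *Timp1*, a soluble inhibitor, had 8.47 and 8.42 dorsally and 8.24 and 7.82 ventrally. Its difference of 0.42 did not pass with all 4 arrays (95% interval 0.04 to 0.79, adjusted p = 0.198 from limma) and passed without ventral replicate 1 (0.63), whereas it was 0.21 without ventral replicate 2 and did not pass. *Timp2*, the inhibitor that takes part in the activation of MMP2, had 9.06 and 9.17 dorsally and 9.001 and 8.74 ventrally, a difference of 0.25 (adjusted p = 0.483 from limma). It was 0.38 and passed without ventral replicate 1, and was 0.11 and did not pass without ventral replicate 2. *Timp4* lay below the filter. The promoter of *Timp3* is the fourth available for the members that passed.
*Timp3* (chr10:86300162-86300411, plus strand): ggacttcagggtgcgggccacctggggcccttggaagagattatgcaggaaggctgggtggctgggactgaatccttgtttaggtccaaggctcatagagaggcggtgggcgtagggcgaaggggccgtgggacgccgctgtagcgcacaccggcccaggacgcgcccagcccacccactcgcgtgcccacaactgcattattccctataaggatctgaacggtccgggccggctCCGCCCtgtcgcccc
It held 1 GC box, as did 32.7% of all promoters.

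None of 13 tested ADAM genes passed the test in either direction, where 8.88% of all tested genes did. *Adam22* alone had an unadjusted p under 0.05 from limma, as had 2490 of all 13139 tested genes. The sheddase gene *Adam10*, whose product releases the outer part of Notch, had 10.78 and 10.94 dorsally and 10.92 and 10.89 ventrally. The parts overlapped, at a difference of -0.04 with a 95% interval of -0.39 to 0.31. *Adam17*, which sheds TNF and ligands of the EGF receptor, had 8.73 and 8.67 dorsally and 8.97 and 8.75 ventrally, a difference of -0.16 (95% interval -0.52 to 0.19). Of its other probe sets 1 differed by 0.28 and 1 by -0.03, so its probe sets did not run one way. *Adam9* had 9.56 and 9.58 dorsally and 9.62 and 9.28 ventrally and differed by 0.12 (95% interval -0.24 to 0.49), and it was 0.29 without ventral replicate 1, which passed, and turned to -0.05 without ventral replicate 2, which did not. *Adam12*, *Adam15* and *Adam19*, which are active proteases of mesenchymal and other cells, differed by -0.06, -0.09 and -0.14. The probe set kept for *Adam15* was not specific to 1 transcript. Another of its probe sets, without that limit, had 4.25 and 4.55 dorsally and 4.90 and 5.06 ventrally. That probe set differed by -0.58 (adjusted p = 0.102 from limma when all probe sets were tested). The intervals of these genes leave room for a change in either direction, and a difference inside them was not detectable with 4 arrays.

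*Adam22*, *Adam11* and *Adam23* encode ADAMs without protease activity that act as neuronal receptors. *Adam22* had 8.31 and 8.30 dorsally and 7.87 and 7.87 ventrally. The replicates nearly coincided and the parts were separated by 0.44 (95% interval 0.09 to 0.78, adjusted p = 0.129 from limma), but its other probe set, near the filter, differed by -0.07. *Adam11* was at 6.48 and 6.48 dorsally and 6.25 and 6.30 ventrally, also with both dorsal arrays higher, and differed by 0.21. *Adam23* differed by -0.25 with overlap. *Adam8*, known from leukocytes, had a difference of 0.24 and *Adam33* one of -0.25.

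**Figure D3:**
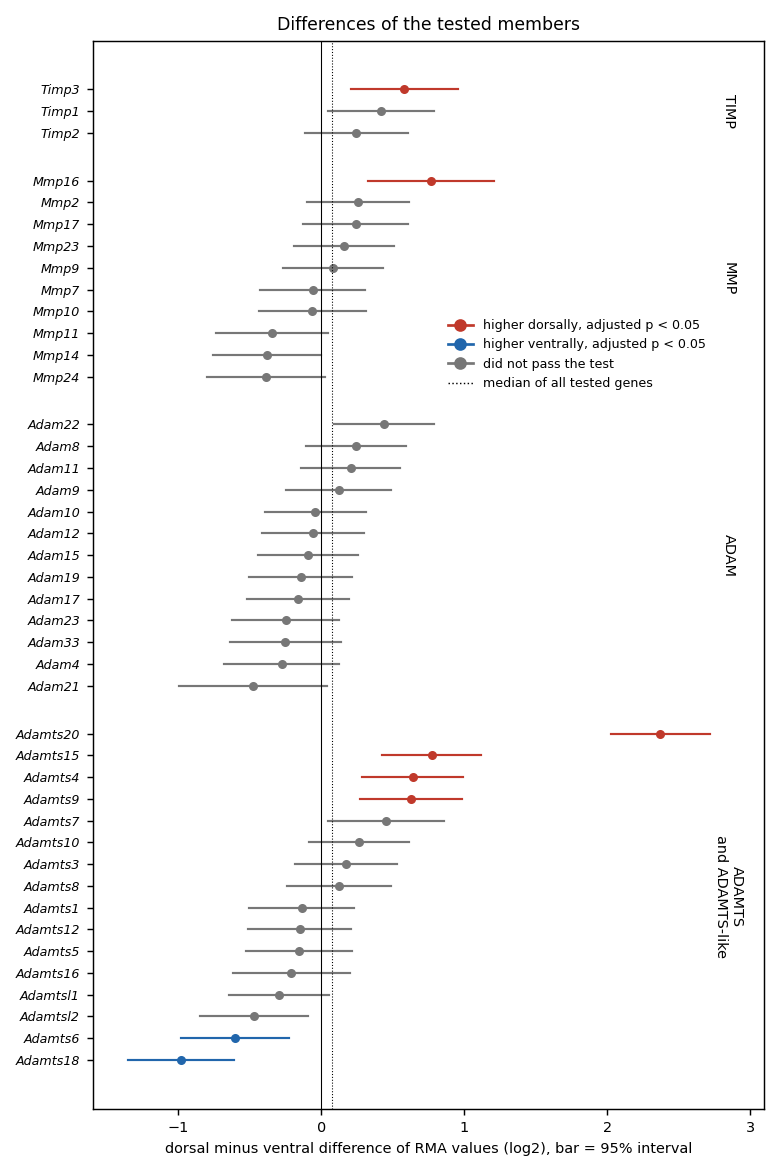
Difference between the parts, dorsal minus ventral (log2, horizontal axis), for each of the 42 tested members, with the 95% interval from limma as a bar, by family. Red marks genes higher dorsally, blue genes higher ventrally and grey genes that did not pass, and the dotted line marks the median of all tested genes at 0.07. The ADAMTS genes spread from -0.98 to 2.37 and the ADAM genes from -0.48 to 0.44.

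By family, the median absolute difference was 0.37 for the 16 tested ADAMTS and ADAMTS-like genes, 0.25 for the 10 MMP genes and 0.21 for the 13 ADAM genes, beside 0.18 for all tested genes. The signed medians were -0.01, 0.01 and -0.09, and that of the 3 TIMP genes was 0.42, or 0.63 without ventral replicate 1 and 0.21 without ventral replicate 2. The ADAMTS median hides genes that ran in both directions, with 4 higher dorsally and 2 higher ventrally. It was 0.36 with a filter at the 60th percentile and 0.20 when the probe sets of a gene were averaged, and it was above 0 with any 1 array left out, so it has no settled sign.

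Of the 70 members 32 had more than 1 probe set. For 16 genes at least 2 probe sets were above the filter, and for 10 of these all such probe sets had differences of the same sign. *Adamts9* gave 0.63, 0.56 and 0.35 on its 3 probe sets. The 4 probe sets of *Adam15* lay between -0.58 and -0.05, and those of *Timp2* above the filter between -0.11 and 0.27. When all probe sets were tested in place of 1 per gene, with 5.84% of 23336 probe sets called, 2 of the 69 member probe sets were higher dorsally, those of *Adamts20* and *Adamts15*, and 1 was higher ventrally, that of *Adamts18*. The probe sets of *Adamts4*, *Adamts9*, *Adamts6*, *Mmp16* and *Timp3* did not pass in that fit, with adjusted p of 0.0517 to 0.123 from limma for the probe set kept for each gene.

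**Figure D4:**
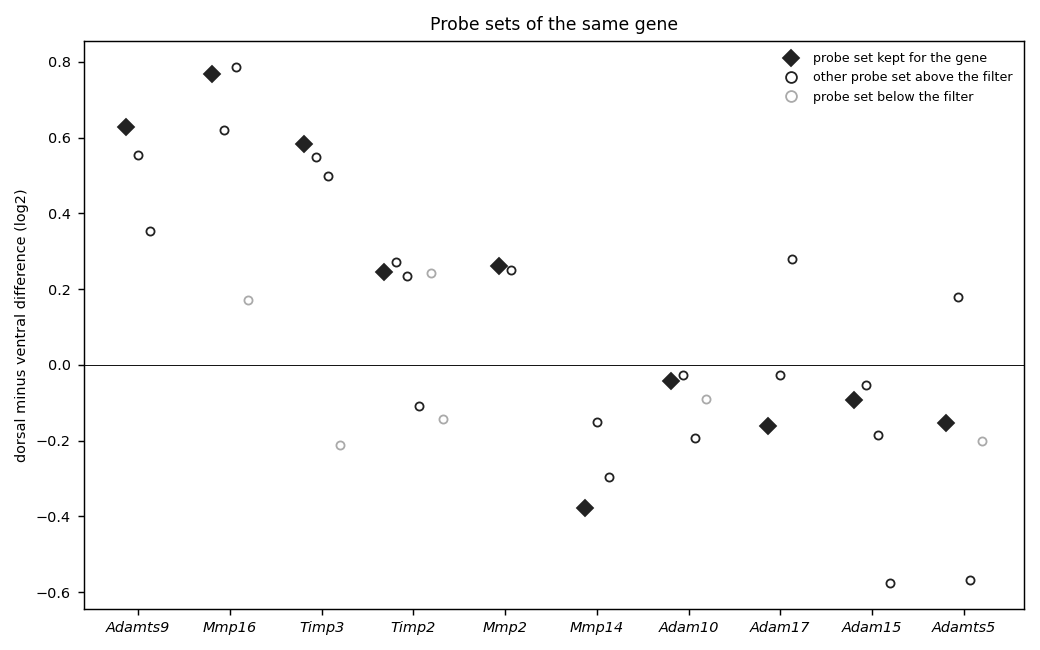
Difference between the parts, dorsal minus ventral (log2, vertical axis), for each probe set of 10 genes with several probe sets. Diamonds mark the probe set kept for the gene, open circles the others, and grey circles those below the filter. The probe sets above the filter all lie above 0 for *Adamts9*, *Mmp16* and *Timp3*, whereas those of *Adam17* and *Adamts5* lie on both sides of 0.

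Since the arrays of the parts did not overlap for the 8 members that passed, their sign within each replicate number was fixed, and the plot of differences by number shows their size. The differences of *Adamts20* and *Adamts15* in number 1 and in number 2 lay less than 0.1 apart. *Mmp16* and *Timp3* differed more within number 2, and *Adamts6* and *Adamts18* more within number 1. The median of all tested genes was 0.00 within number 1 and 0.18 within number 2, and for the TIMP genes it was 0.23 and 0.60. *Adam21*, known from the testis, changed sign between the numbers, at 0.25 and -1.20, with a high value of 6.55 on ventral replicate 2.

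**Figure D5:**
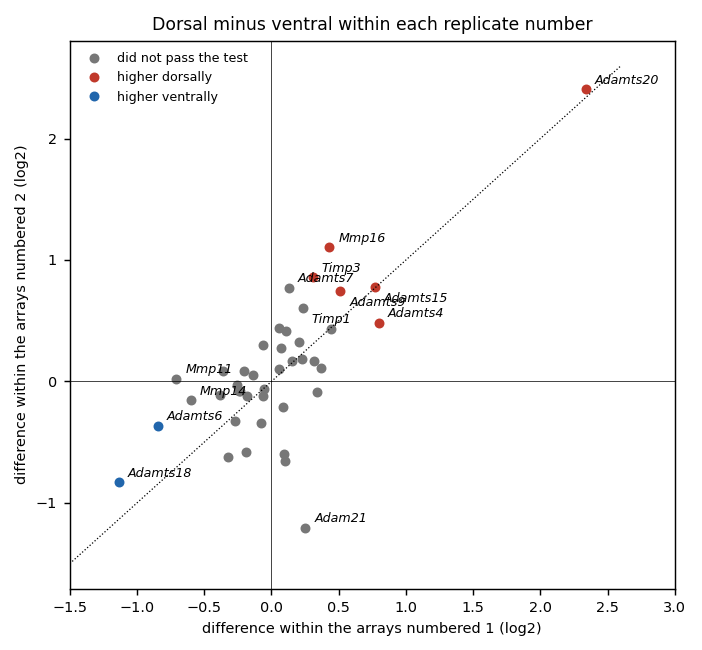
Difference between the dorsal and ventral array numbered 2 (log2, vertical axis) against that between the arrays numbered 1 (log2, horizontal axis), with 1 point per tested member and a dotted line where both are equal. The 6 members higher dorsally (red) lie in the upper right and the 2 higher ventrally (blue) in the lower left, while *Adam21* lies far below the line.

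Some other genes of matrix proteolysis also passed the test between the parts. In a list of proprotein convertases and the plasminogen system, 1 of 8 tested genes was higher dorsally and 2 ventrally. The shares of all tested genes were 4.79% and 4.09%. *Plat*, which encodes tissue plasminogen activator, had 10.46 and 10.42 dorsally and 9.34 and 9.09 ventrally, a difference of 1.22 (adjusted p = 2.12e-05 from limma). *Plaur*, the receptor of the other plasminogen activator, was lower dorsally by 0.82 on the log2 scale, with 6.70 and 6.66 there and 7.44 and 7.56 ventrally. *Furin*, the convertase that removes the inhibitory prodomains of many ADAM, ADAMTS and membrane-type MMP proteins, had 7.40 and 7.24 dorsally and 8.07 and 8.01 ventrally, a difference of -0.72 (adjusted p = 0.00598 from limma). *Plaur* was lost without dorsal replicate 1 (-0.84) and without dorsal replicate 2 (-0.79), and so was *Furin* (-0.81 and -0.64). *Plat* stood at 0.78 when its probe sets were averaged.

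Of 7 tested astacins, pappalysins, HtrA proteases and their enhancers, 3 were higher dorsally and none ventrally. The counts in this paragraph stand beside 4.79% of all tested genes higher dorsally and 4.09% ventrally. *Pcolce*, whose product enhances the trimming of procollagen by BMP1, had 9.62 and 9.79 dorsally and 7.97 and 7.71 ventrally, a difference of 1.87 (adjusted p = 5.17e-08 from limma). *Pcolce2* differed by 0.64 and the serine protease gene *Htra1* by 0.73, and neither passed without dorsal replicate 1 (0.67 and 0.74) or dorsal replicate 2 (0.60 and 0.73). *Bmp1* itself had 8.16 and 8.29 dorsally and 8.08 and 8.12 ventrally and did not pass. Of 10 tested cathepsins and cystatins *Ctsh* was higher dorsally, at 6.80 and 6.92 against 6.24 and 5.66, and none ventrally. Its difference was 0.91, and it did not pass without dorsal replicate 2 (0.85) or with the values quantile-normalized once more (0.87). Of 10 tested regulators of metalloproteases *Tspan5*, which escorts ADAM10 to the cell surface, and *Rhbdf1*, a partner in the maturation of ADAM17, were higher dorsally, at 0.65 and 0.58, and none ventrally. Both were lost without dorsal replicate 1 (0.66 and 0.65) and without dorsal replicate 2 (0.64 and 0.51), *Rhbdf1* also without ventral replicate 2 (0.44) or without a filter (0.58), and *Tspan5* with its probe sets averaged (0.59). *Reck*, a membrane-anchored inhibitor of MMPs, had 10.37 and 10.48 dorsally and 10.33 and 10.29 ventrally and differed by 0.11.

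The genes of substrates were read in the same way, beside 4.79% of all tested genes higher dorsally and 4.09% ventrally. Of 13 tested genes of hyaluronan and proteoglycans, *Bgn*, *Has2* and *Dcn* were higher dorsally and *Hapln3* ventrally. *Vcan*, the versican gene, had 12.05 and 12.00 dorsally and 12.21 and 11.88 ventrally, with overlap and a difference of -0.02. *Bgn*, the small proteoglycan biglycan, had 7.71 and 7.63 dorsally and 6.48 and 5.98 ventrally, a difference of 1.45 (adjusted p = 5.89e-06 from limma). *Has2*, a hyaluronan synthase, differed by 0.58 and was lost without dorsal replicate 1 (0.60), without dorsal replicate 2 (0.57) or without a filter (0.58), and *Hapln3*, a link protein of hyaluronan, differed by -0.87 and was lost without dorsal replicate 1 (-0.82). *Dcn*, decorin, differed by 0.58 and was lost without dorsal replicate 1 (0.62), without dorsal replicate 2 (0.54), without a filter, with the values quantile-normalized once more (0.47) and with its probe sets averaged (0.25). Of 10 procollagens, fibrillins and related proteins 3 were higher dorsally and none ventrally. They were *Col1a1*, at 8.71 and 8.84 dorsally and 6.29 and 6.16 ventrally, *Col1a2* (1.11) and *Fbln2* (1.28).

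Of 18 tested genes of proteins that ADAM10 or ADAM17 can shed, 3 were higher dorsally and 2 ventrally. The shares of all tested genes were 4.79% and 4.09%. *L1cam*, an adhesion molecule of neurons and neural crest, had 7.27 and 7.44 dorsally and 5.37 and 5.64 ventrally, a difference of 1.84, which was 0.94 with its probe sets averaged. *Dll1*, a Notch ligand, was higher dorsally by 1.02 and *Cdh2*, N-cadherin, by 0.59, and the latter was lost without dorsal replicate 1 (0.56), without dorsal replicate 2 (0.62) or without a filter (0.59). *Jag1*, another Notch ligand, had 8.23 and 8.23 dorsally and 9.59 and 9.54 ventrally, a difference of -1.34, and *Kitl* had one of -1.23. The sheddase genes did not pass, 13 of the 18 substrate genes did not pass either, and no test compared both sets.

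Markers of several other cell types moved with the parts, and their part in the differences of the proteases was not tested. The marker counts stand beside 4.79% of all tested genes higher dorsally and 4.09% ventrally. Beside the members higher dorsally, 6 of 8 tested neural crest markers were higher dorsally and 2 ventrally, and their mean value was 8.04 and 8.16 dorsally and 6.84 and 6.77 ventrally. *Ret* differed by 4.79, with 1 ventral array below the 40th percentile, and *Tfap2b* by 2.82. Of 8 mesothelial markers 5 were higher dorsally, among them *Bnc1* (3.60) and *Wt1* (2.96), which lay below the 40th percentile on 1 and on both ventral arrays, and 1 was higher ventrally, with means of 8.38 and 8.26 dorsally and 7.09 and 6.77 ventrally. Of 9 neuronal markers 6 were higher dorsally, with *Nefm* at 3.33, and *Isl1* was higher ventrally, at means of 7.69 and 7.73 against 7.04 and 6.80. Of 8 blood markers 4 were higher dorsally, among them *Slc4a1* (1.30) and *Alas2* (1.19), and none ventrally, at means of 10.25 and 10.29 against 9.74 and 9.42.

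Beside the members higher ventrally, 12 of 13 tested heart muscle markers were higher ventrally and none dorsally, at means of 5.92 and 5.97 dorsally and 9.51 and 9.23 ventrally. *Myh6* differed by -6.16, from a dorsal level below the 40th percentile of both arrays, and *Tnnt2* by -5.34. Of 6 hepatic markers 3 were higher ventrally, with *Afp* at -3.50 and *Ttr* at -2.08, and none dorsally, at means of 6.40 and 6.43 against 7.73 and 7.69. Of 13 epithelial markers 5 were higher ventrally, with *Shh* at -2.66 and *Grhl2* at -0.77, and *Sox2* dorsally, at means of 9.18 and 9.13 against 9.81 and 9.58. *Grhl2* was lost without dorsal replicate 1 (-0.81), without dorsal replicate 2 (-0.73) and when its probe sets were averaged (-0.24). *Sox2* (0.57) was lost without dorsal replicate 1 (0.56), without dorsal replicate 2 (0.58), without a filter and with the values quantile-normalized once more (0.46). Of 12 markers of foregut mesenchyme, *Prrx1* (3.08) and *Meox1* were higher dorsally and 4 were higher ventrally, with *Wnt2* at -2.73, at means of 8.47 and 8.47 against 8.58 and 8.34. Of 15 endothelial markers *Sox17* was higher dorsally (0.98) and none ventrally, beside 4.79% and 4.09% of all tested genes. The endothelial means were 7.96 and 7.89 dorsally and 7.93 and 7.61 ventrally. Of 10 macrophage markers 3 were tested, none passed, and the other 7 did not reach the 40th percentile on either array of a part. The 3 tested were *Csf1r*, at 6.02 and 6.32 dorsally and 6.34 and 6.37 ventrally, *Adgre1*, at 5.46 and 5.61 against 5.45 and 6.33, and *Spi1*, at 5.48 and 5.44 against 5.10 and 5.93. With probe sets averaged, *Ret* differed by 2.60, *Prrx1* by 1.59, *Slc4a1* by 0.79, *Myh6* by -3.14 and *Afp* by -2.09, and *Tnnt2* differed by -0.76 on probe sets that match a single transcript, all past the threshold in the same direction.

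The 28 members that were not tested had values of 2.51 to 4.89 on the 4 arrays. They were 15 ADAM, 8 MMP, 3 ADAMTS-like and 2 other genes, *Adamts19* and *Timp4*. For 25 of them no array exceeded the 40th percentile and for 3 a single array did, and their largest absolute difference was 0.47. Of 16 ADAM genes known from the male germ line and reproductive tract, 14 were not tested, and *Adam4* and *Adam21* were tested and did not pass. Of the 12 other ADAM genes *Adam28* alone was not tested. None of the 4 collagenase genes, *Mmp1a*, *Mmp1b*, *Mmp8* and *Mmp13*, was tested.

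Members that lie side by side in the genome were mostly among those not tested. In the order of RefSeq protein-coding genes (GRCm38.p6), 10 MMP genes follow each other without another gene between them, and of the 9 on the array *Mmp7* and *Mmp10* were tested and neither passed. In a run of 5 neighbouring ADAM genes only *Adam9* was tested. *Adamts15* and *Adamts8* are neighbours, and *Adamts15* passed (0.77) where *Adamts8* did not (0.12). *Adamts1* and *Adamts5* are neighbours, and neither passed.

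The AP-1 letters occurred in the 250 bases before the start of 6 of the 41 members with a promoter entry, and in 4.47% of all 27025 promoters. All 6 belong to the run of 10 neighbouring MMP genes, and 4 of them were not tested. Their sites are shown with up to 10 bases on each side, with the 7 letters TGACTCA or its reverse complement TGAGTCA in capitals.
*Mmp10* (chr9:7502269-7502295, plus strand): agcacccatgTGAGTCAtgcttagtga
*Mmp13* (chr9:7272469-7272495, plus strand): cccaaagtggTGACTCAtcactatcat
*Mmp1a* (chr9:7464058-7464084, plus strand): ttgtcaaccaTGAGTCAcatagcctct
*Mmp1b* (chr9:7388103-7388129, minus strand): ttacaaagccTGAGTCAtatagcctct
*Mmp3* (chr9:7445766-7445792, plus strand): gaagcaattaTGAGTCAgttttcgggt
*Mmp7* (chr9:7692017-7692043, plus strand): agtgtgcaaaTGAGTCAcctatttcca
Each of these promoters also held the letters TATAAA or their reverse complement, which 11 of the 41 members and 12.9% of all promoters did. None of the 4 printed promoters of members that passed held AP-1 or TATA letters, which says only that these letters are not in those windows.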

How the data were processed

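The 4 samples were grouped by their labels into 2 dorsal and 2 ventral arrays. The authors summarised the scans by RMA into the deposited log2 values, by software not given in the sources used here. That scale is read from the range of the values. Symbols are those that GEO's annotation of the platform lists, and some may be outdated. Of 45101 probe sets 34958 had 1 symbol, 932 had several and 9211 were not named here, and the identifiers of 34754 were found in the RefSeq table of GRCm38.p6 with no change of symbol. The probe set with the highest mean was kept for each gene, and genes above the 40th percentile on 2 or more arrays entered the test (R 4.3.3, limma 3.58.1, lmFit followed by eBayes), dorsal minus ventral, two-sided, with Benjamini-Hochberg adjustment over 13139 genes and a threshold of 0.05. The fit was tested on simulated data. No detection calls were used, and precision is limited by how few arrays there are.

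The members, gene lists, tests and alternatives were chosen with earlier results of these data known, and the groups of germ line ADAMs and of other ADAMTS genes, the motifs and the neighbours after the values were seen. Named are all members that passed, all TIMP genes, 7 well-known members, the 3 with the highest values per family, up to 3 genes per list and 2 per marker list with the largest differences among those that passed. Other members and list genes were named after their values were seen. Protein sequences were not used here. The replicate numbers are not said to pair the arrays.

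The alternatives were a further quantile normalization, equal array medians, a filter at the 60th percentile or none, averaged probe sets, probe sets specific to 1 transcript, eBayes with a trend or made robust, a replicate block, a threshold of 0.01, a test of all probe sets and leaving out each array. A planned search of protein motifs was not run.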

Additional observations from a re-analysis of the deposited data

How the results depend on the processing

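The count of members was 6 higher dorsally and 2 higher ventrally. With the values quantile-normalized once more it was 3 and 1 (3.65% and 4.83% of all genes), with the probe sets of a gene averaged 3 and 0 (3.56% and 3.30%), and at an adjusted p under 0.01 it was 2 and 1. With probe sets specific to 1 transcript the counts were 6 and 3 (5.24% and 4.29% of all genes). Without a filter they were 4 and 1 (2.90% and 2.59%), and with a trend in eBayes 6 and 1 (5.36% and 4.23%). Above the 60th percentile they were 6 and 0 (6.41% and 4.69%), where neither ventral gene was tested. Neither was tested with the mean of probe sets either. Leaving out 1 array, the dorsal count ran from 1 to 13 and the ventral count from 1 to 8. With 1 array left out the spread comes only from the part that keeps its pair, and the ventral arrays were farther apart than the dorsal ones. With the replicate number as a block the counts were again 6 and 2, while the shares of all genes were 6.01% and 5.16%. No call of a named member was lost with the block. The numbers are not said to pair the arrays, and the differences between replicates correlated at 0.14 over genes between the parts.

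The median of the ADAM genes (-0.09) was -0.20 with the values quantile-normalized once more, -0.050 with a filter at the 60th percentile and -0.061 with the mean of probe sets, and it ran from -0.11 to -0.026 with 1 array left out. The median of the ADAMTS and ADAMTS-like genes (-0.01) was -0.10 without a filter, 0.36 with a filter at the 60th percentile and 0.20 with the mean of probe sets, and it ran from 0.0056 to 0.11 with 1 array left out. The median of the MMP genes (0.01) was 0.20 with a filter at the 60th percentile, -0.08 without a filter and -0.06 with the mean of probe sets, and it ran from -0.03 to 0.11 with 1 array left out, so its sign is not settled. That of the TIMP genes (0.42) was 0.31 with the values quantile-normalized once more and ran from 0.21 to 0.63 with 1 array left out. For the named members, 197 alternative values kept their side of the threshold, 25 lost it and 6 gained it. The 197 include members that did not pass in the main fit and stayed so. All 25 losses were of members that passed, and *Adamts20* and *Adamts18* had none. *Adamts6* lost its call in 5 of 11 alternatives, and *Mmp16* and *Timp3* each in 6 of 13. For the named genes of other lists 471 kept it and 36 lost it. No called difference changed sign. The number of arrays limits what can be detected, and a level below the 40th percentile was not tested.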
